A study of Ricinus communis with 18 samples.

Results

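The genes described here are 3 castor genes chosen by their identifiers: the nicotianamine synthase-like genes ncbi_8258799 and ncbi_8261713, and ncbi_8269711, annotated as protein PLANT CADMIUM RESISTANCE 9-like. They are 3 of the 21332 genes in the deposited table, and all 3 were among the 16085 genes with enough counts to be tested. The nicotianamine synthase-like genes were picked for how low they were in roots after 3 days of PEG, and ncbi_8269711 was picked with earlier results of these libraries known. The values at 3 days, and all values of ncbi_8269711, are therefore given as a description with no test.

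Nicotianamine synthase joins molecules of S-adenosylmethionine into nicotianamine, a small molecule of plants that binds iron, zinc, copper, nickel and manganese. Nicotianamine keeps these metals soluble in the cell and in the phloem, and transporters of the Yellow Stripe-like (YSL) family carry its metal complexes across membranes. In Arabidopsis and rice, roots make part of the nicotianamine of the plant, and the synthase genes respond to iron and zinc supply. PLANT CADMIUM RESISTANCE proteins are small cysteine-rich membrane proteins. Members of that family in Arabidopsis lower the cadmium content of cells or move zinc, and the related cell number regulators of maize and tomato act on cell number and organ size.

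The libraries hold RNA of complete castor (Ricinus communis) roots, 3 libraries in each of 6 groups. The groups were roots held in 15% PEG-6000, a polymer that lowers the water potential around the root, for 3 days; untreated roots of day 3; roots in 15% PEG-6000 for 7 days; untreated roots of day 7; roots 4 days after the removal of 15% PEG-6000, called rehydrated; and untreated roots of day 11. The labels give only the 4 days since removal for the rehydrated roots. Day 11 for them comes from the series text, and 7 days of PEG before the removal is inferred from it, so the comparisons at day 11 rest on that. The labels name no cultivar and do not say whether replicate libraries stem from different plants. The p-values therefore reflect only the spread seen between the libraries, which may be technical. Library totals ran from 6607760 to 10817476 counts. A root system holds many cell types, so fewer cells of a type and less RNA per cell cannot be told apart.

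In ncbi_8258799 the level per gene length was close to 0 after 3 days of PEG and well above it in every untreated library. Its FPKM, a level scaled to gene length and library size, was 1.12, 0.46 and 0 in the PEG libraries of day 3, from 10, 4 and 0 counts, against 26.54, 32.08 and 29.97 in the untreated libraries of day 3. All PEG libraries lay far below all untreated ones. For the library at 0, a count of 0 allows up to 0.275 FPKM, which is the value of 3 counts and covers counting error only. At 7 days the FPKM was 6.94, 7.7 and 11.3 in PEG roots, against 43.97, 34.04 and 27.61 in untreated roots. The groups again did not overlap, but the distance between them was smaller than at 3 days. At day 11 the FPKM was 6.51, 5.59 and 4.51 in rehydrated roots, against 13.04, 15.67 and 9.02 in untreated roots. Here too the ranges stayed apart, with the untreated roots themselves lower than on the earlier days.

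Group means of ncbi_8258799 were 0.527 ± 0.563 FPKM in PEG roots and 29.5 ± 2.80 FPKM in untreated roots at 3 days (SD, n = 3 each), a ratio of 56.1 with the untreated mean on top. At 7 days they were 8.65 ± 2.33 FPKM in PEG roots and 35.2 ± 8.24 FPKM in untreated roots, which is 4.07 times as much. At day 11 they were 5.54 ± 1.00 FPKM in rehydrated roots and 12.6 ± 3.35 FPKM in untreated roots. Ranked by mean, PEG roots of day 3 were lowest, followed by rehydrated roots, PEG roots of day 7, untreated roots of day 11, untreated roots of day 3 and untreated roots of day 7. Among these neighbours, the ranges overlapped between PEG roots of day 7 and untreated roots of day 11, and between the untreated roots of days 3 and 7.

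ncbi_8261713, the other nicotianamine synthase-like gene, was also near 0 in PEG roots of day 3, but its level varied far more between libraries of 1 group. Its FPKM was 0.39, 0.54 and 0.32 in PEG roots of day 3, from 3, 4 and 3 counts, against 12.08, 8.85 and 49.99 in untreated roots of day 3. The untreated libraries were all above the PEG libraries, and the third untreated library stood well above the others of its group. At 7 days the FPKM was 9.81, 17.98 and 2.01 in PEG roots, against 49.77, 22.89 and 64.1 in untreated roots. The ranges did not overlap, with the highest PEG library not far below the lowest untreated one. At day 11 it was 0.14, 2.14 and 3.83 in rehydrated roots, against 5.46, 38.12 and 2.37 in untreated roots, and the ranges overlapped.

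The means of ncbi_8261713 were 0.417 ± 0.112 FPKM in PEG roots and 23.6 ± 22.9 FPKM in untreated roots at 3 days (SD, n = 3 each). At 7 days they were 9.93 ± 7.99 FPKM in PEG roots and 45.6 ± 20.9 FPKM in untreated roots. At day 11 they were 2.04 ± 1.85 FPKM in rehydrated roots and 15.3 ± 19.8 FPKM in untreated roots. The order of group means was PEG day 3, rehydrated, PEG day 7, untreated day 11, untreated day 3 and untreated day 7, the same order as for ncbi_8258799. Each neighbouring pair in that order overlapped.

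ncbi_8269711, the PLANT CADMIUM RESISTANCE 9-like gene, ran the other way. Its FPKM was 19.12, 26.37 and 26.46 in PEG roots of day 3, against 0.6, 5.55 and 0.93 in untreated roots of day 3. Every PEG library was above every untreated one, and the second untreated library stood above its 2 partners. At 7 days it was 10.86, 9.4 and 5.63 in PEG roots, against 1.14, 0.22 and 1.06 in untreated roots, again with no overlap. At day 11 it was 1.21, 2.35 and 1.23 in rehydrated roots, against 6.15, 2.55 and 1.17 in untreated roots. At that time the rehydrated libraries lay inside the range of the untreated ones.

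The means of ncbi_8269711 were 24.0 ± 4.21 FPKM in PEG roots and 2.36 ± 2.77 FPKM in untreated roots at 3 days (SD, n = 3 each), a ratio of 10.2. At 7 days they were 8.63 ± 2.70 FPKM in PEG roots and 0.807 ± 0.510 FPKM in untreated roots, a ratio of 10.7. At day 11 they were 1.60 ± 0.653 FPKM in rehydrated roots and 3.29 ± 2.57 FPKM in untreated roots. By mean, untreated roots of day 7 were lowest, followed by rehydrated roots, untreated roots of day 3, untreated roots of day 11, PEG roots of day 7 and PEG roots of day 3. Untreated roots of day 7 did not overlap with rehydrated roots, and PEG roots of day 7 did not overlap with PEG roots of day 3; the other neighbours did overlap.

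**Figure D1:**
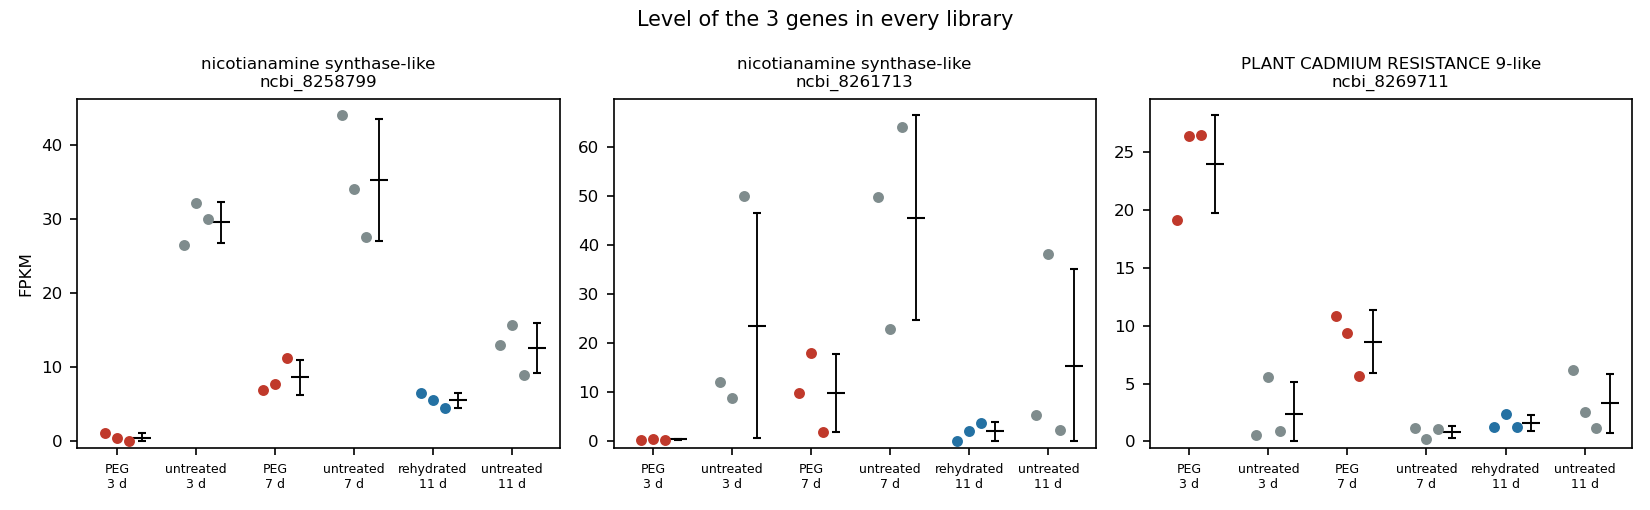
FPKM (vertical axis, linear from 0) of the 3 genes in every library of the 6 groups, with points for libraries and bars for the mean ± SD of 3 (the lower arm ends at 0 where SD exceeds the mean). The nicotianamine synthase-like genes sit at 1.12 FPKM or below in PEG roots of day 3, where ncbi_8269711 is at 19.12 FPKM or above.

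The question behind these groups is how castor roots change under PEG and after its removal, and edgeR's quasi-likelihood test was fitted over all 18 libraries to compare each PEG or rehydrated group with the untreated roots of the same day. At 3 days the log2 change was -5.39 ± 0.58 for ncbi_8258799, -5.36 ± 1.29 for ncbi_8261713 and 3.77 ± 0.68 for ncbi_8269711 (edgeR, SE). The 3 genes were chosen with this comparison known, so these values carry no test, and 23.1% of all genes tested passed an adjusted p of 0.05 at 3 days, 11.7% as higher and 11.4% as lower. Without the first PEG library the change of ncbi_8258799 was -6.62, without the third PEG library it was -4.74, and without the third untreated library that of ncbi_8261713 was -4.14. The change of ncbi_8269711 was 5.36 without the second untreated library. Library totals here differ from TMM scaling: the TMM factors were 0.765 to 0.806 in PEG roots and 1.04 to 1.099 in untreated roots of day 3, so the FPKM ratios of the synthases are larger, and that of ncbi_8269711 smaller, than these fold changes.

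At 7 days, in other libraries than those that chose the synthases, ncbi_8258799 was lower in PEG roots by edgeR's quasi-likelihood test (log2 change -1.78 ± 0.45, adjusted p = 0.0384), below the untreated range in 3 of 3 PEG libraries. Of all genes tested, 4.05% passed at 7 days, 2.59% as higher and 1.46% as lower. The edgeR adjusted p was 0.119 without untreated library 1, 0.143 without untreated library 2, 0.185 without PEG library 1, 0.0767 without PEG library 2 and 0.0839 without PEG library 3, so the call rested on nearly all libraries being present. With the replicate number as a block it was 0.0582. ncbi_8261713 did not pass at 7 days (log2 change -1.93 ± 0.98, edgeR adjusted p = 0.241). For ncbi_8269711 the log2 change was 3.62 ± 0.74, given as a description.

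At day 11 neither synthase passed: the log2 change between rehydrated and untreated roots was -1.25 ± 0.45 for ncbi_8258799 (edgeR adjusted p = 0.398) and -2.99 ± 1.09 for ncbi_8261713 (edgeR adjusted p = 0.399). DESeq2 gave adjusted p-values of 0.0673 and 0.128 for these genes. The value of ncbi_8261713 was -0.91 without the second untreated library. For ncbi_8269711 the log2 change was -1.01 ± 0.71. In this comparison 2 genes of all those tested passed, or 0.0124%, and 1564 had an unadjusted p below 0.05.

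The change at 7 days minus the change at 3 days was 3.61 ± 0.71 on the log2 scale for ncbi_8258799, 3.43 ± 1.60 for ncbi_8261713 and -0.15 ± 1.18 for ncbi_8269711. The change at day 11 minus that at 7 days was 0.53 ± 0.63, -1.06 ± 1.41 and -4.63 ± 1.02 for the same genes in that order. Both differences use comparisons that chose the genes or may have chosen them, so they are descriptions. Among all genes, 0.236% passed for the difference between 7 and 3 days and 0.671% for that between day 11 and 7 days. Between untreated groups, day 7 minus day 3 gave log2 changes of 0.26 ± 0.43, 0.92 ± 0.94 and -1.48 ± 0.76, and day 11 minus day 3 gave -1.29 ± 0.44, -0.66 ± 0.95 and 0.34 ± 0.68; none of these passed by edgeR's quasi-likelihood test. Of all genes, 0 passed for day 7 minus day 3 and 5, or 0.0311%, for day 11 minus day 3. DESeq2 called ncbi_8258799 lower in untreated roots of day 11 than of day 3 (adjusted p = 0.0315). The untreated libraries of day 3 enter both of these comparisons and also entered the choice of the synthases. The values between untreated groups are therefore descriptions as well.

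**Figure D2:**
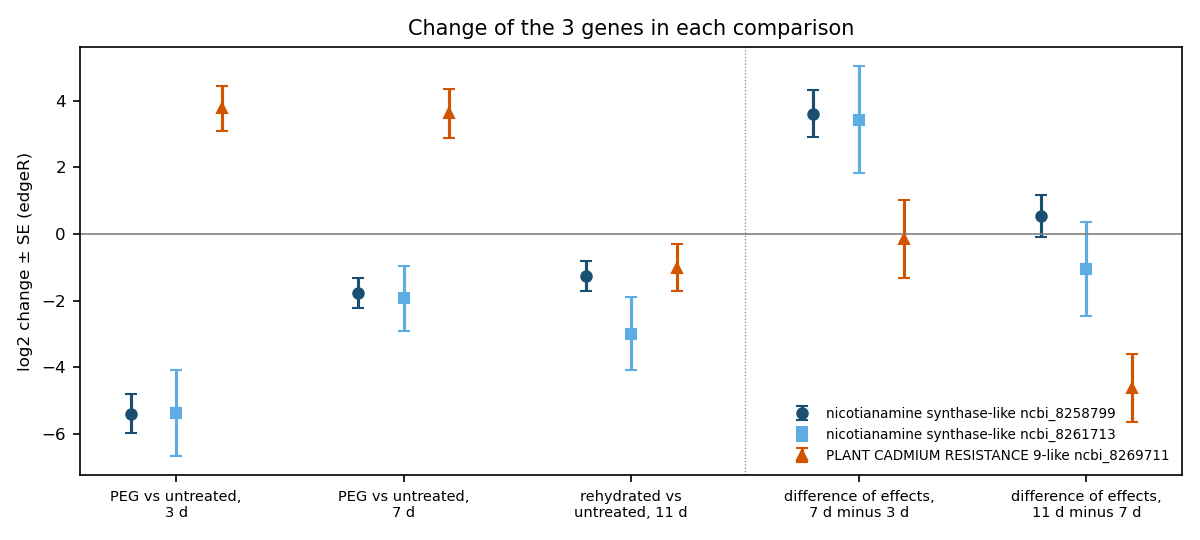
log2 change ± SE from edgeR (vertical axis) of the 3 genes for PEG against untreated roots at 3 and 7 days, rehydrated against untreated roots at day 11, and the differences between these changes (right of the dotted line). The synthases are at -5.39 and -5.36 at 3 days and at -1.78 and -1.93 at 7 days, while ncbi_8269711 is at 3.77, 3.62 and -1.01.

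The table holds 5 nicotianamine synthase-like genes, and all 5 were tested. Besides the members these are ncbi_8261714, ncbi_8279286 and ncbi_8269821. In the reference gene table ncbi_8261713 and ncbi_8261714 lie next to each other, ncbi_8258799 lies between a DELLA RGL1-like gene and a seed maturation protein gene, and ncbi_8279286 was not matched. The lengths implied by counts and FPKM were 1010 bases for ncbi_8258799, 859 for ncbi_8261713, 624 for ncbi_8261714, 633 for ncbi_8279286 and 1400 for ncbi_8269821.

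ncbi_8261713, ncbi_8261714 and ncbi_8279286 share reads. Their deposited counts held fractions in 9, 16 and 16 of the 18 libraries, while in 18 of 18 libraries the counts of these 3 copies added up to a whole number, to within 0.02 counts. The other synthases had whole counts throughout. How the authors' counting split reads among the 3 copies is thus uncertain for each of them, ncbi_8261713 included, while their sum does not depend on it. The summed counts, not scaled to library size, were 3, 6 and 21 in PEG roots of day 3, against 173.99, 130 and 795 in untreated roots. They were 154, 338.99 and 22 in PEG roots of day 7, against 857, 316.99 and 1034 in untreated roots, and 10, 20 and 57 in rehydrated roots, against 60, 463 and 44 in untreated roots of day 11. Scaled to library size, as CPM, the ranges of the sum were apart at 3 days and at 7 days, with 16.9, 35.6 and 2.82 CPM in PEG roots of day 7, against 86.1, 42.4 and 113 CPM in untreated roots. They overlapped at day 11, with 1.24, 2.62 and 7.21 CPM in rehydrated roots, against 9.08, 60.6 and 5.27 CPM in untreated roots.

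Fitted as 1 feature in place of the 3 copies, a fit added after the fractions had been seen, the sum had log2 changes of -4.95 ± 1.19 at 3 days, -1.86 ± 0.98 at 7 days and -2.85 ± 1.05 at day 11. These lie close to the values of ncbi_8261713 alone. At 7 days and day 11 the sum did not pass (edgeR adjusted p = 0.257 and 0.401). Over the 18 libraries, log2 CPM of ncbi_8261713 correlated with those of ncbi_8261714 and ncbi_8279286 at Pearson r of 0.932 and 0.951, and at 0.787 and 0.813 after removal of the group means; the shared reads enter all of these values. Between ncbi_8258799 and ncbi_8261713, which share no fractional counts, r was 0.777 and, after removal of the group means, 0.003.

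The other copies were low in the same group. ncbi_8261714 had 0, 0.37 and 1.71 FPKM in PEG roots of day 3, against 10.27, 6.61 and 40.49 FPKM in untreated roots. ncbi_8279286 had 0, 0 and 0.95 FPKM in PEG roots of day 3, against 7.28, 6.49 and 35.7 FPKM in untreated roots. Their log2 changes were -4.20 and -5.18 at 3 days, -1.70 and -1.96 at 7 days and -2.59 and -2.80 at day 11. Since they share reads with a member, their values at 3 days are no separate evidence.

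ncbi_8269821 had the highest mean FPKM among the 5 in each group and shares no fractional counts with them. It was not highest in every library: untreated library 3 of day 7 had 50.8 FPKM of it and 64.1 FPKM of ncbi_8261713. Its FPKM was 29.16, 5.67 and 9.24 in PEG roots of day 3, against 158.98, 53.43 and 56.13 in untreated roots, and it was lower by edgeR's quasi-likelihood test (log2 change -2.15, adjusted p = 0.0363). That call was lost without untreated library 1 (log2 change -1.48, adjusted p = 0.175), PEG library 2 (-1.77, 0.127) or PEG library 3 (-1.89, 0.12), and the change was -3.13 without PEG library 1. It was also lost with only the 2 groups in the fit (-2.16, edgeR adjusted p = 0.0942). At 7 days its FPKM was 67.48, 257.09 and 95.14 in PEG roots, against 84.18, 197.42 and 50.8 in untreated roots. The groups overlapped there (log2 change 0.49, edgeR adjusted p = 0.677), and without PEG library 2 the change was -0.21. At day 11 its mean was 48.4 ± 15.2 FPKM in rehydrated roots and 83.7 ± 23.6 FPKM in untreated roots (SD, n = 3 each).

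Over all 5 genes the summed FPKM was 30.7, 7.04 and 12.2 in PEG roots of day 3, against 215, 107 and 212 in untreated roots. It was 97.7, 315 and 110 in PEG roots of day 7, against 247, 291 and 234 in untreated roots. In rehydrated roots it was 55, 73.5 and 48.8, against 87, 179 and 125 in untreated roots of day 11. The sums did not overlap at 3 days and at day 11 and overlapped at 7 days. ncbi_8269821 made up 75.6% to 95.1% of the sum in PEG roots of day 3, against 26.4% to 73.9% in untreated roots. At 7 days its share was 69.1% to 86.3% in PEG roots, against 21.7% to 67.9% in untreated roots. Counted by calls, 5 of 5 synthases were lower at 3 days, 1 of 5 at 7 days and 0 of 5 at day 11, where DESeq2 also called none of them. Of all genes, 11.4% were lower at 3 days and 1.46% at 7 days. The 3-day count includes the genes chosen for it and the copies that share reads with one of them.

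**Figure D3:**
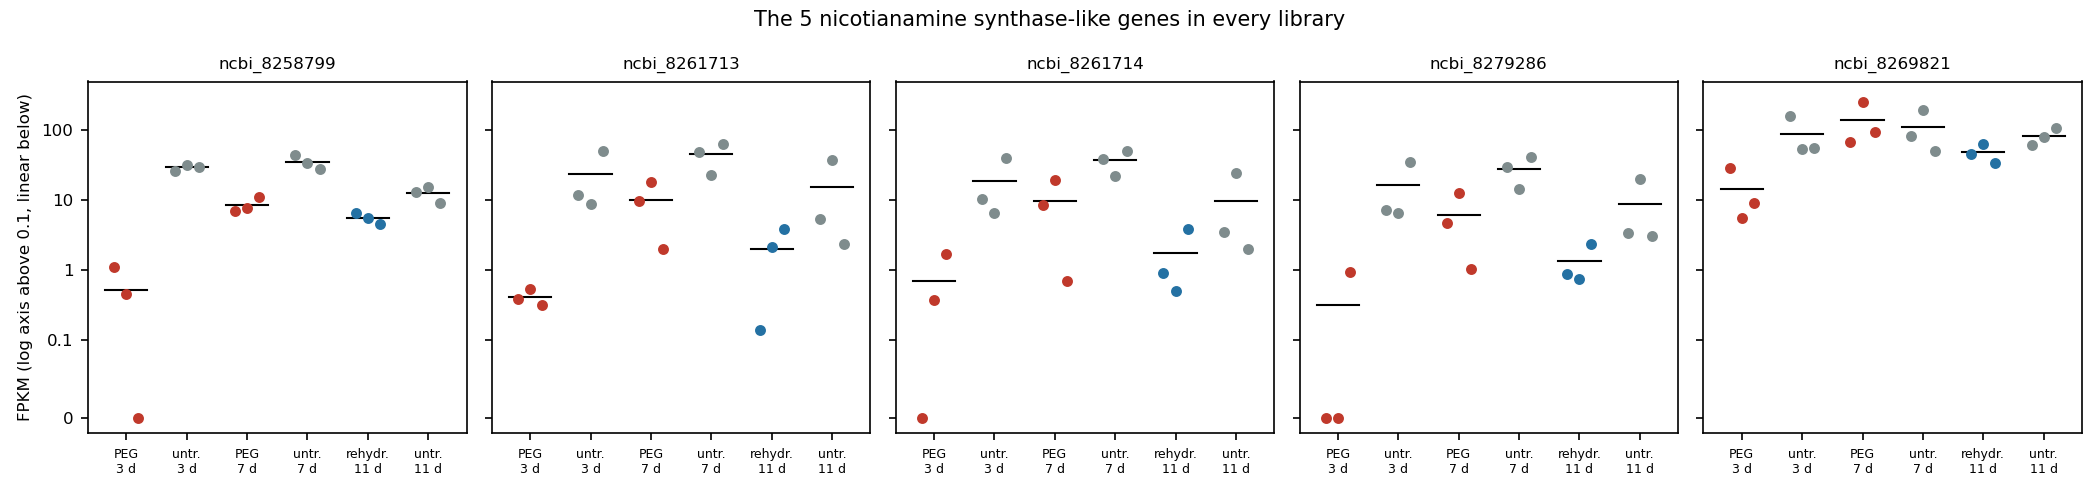
FPKM (vertical axis, logarithmic above 0.1 and linear below) of the 5 nicotianamine synthase-like genes in every library, with points for libraries and lines for the mean of 3. All 5 are lowest by mean in PEG roots of day 3, and ncbi_8269821, at 5.67 to 29.16 FPKM there, stays above the others.

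The PLANT CADMIUM RESISTANCE and cell number regulator list held 15 genes, of which 13 were tested. At 3 days 4 were higher in PEG roots, ncbi_8269711, which was chosen with results known, among them, and 1 was lower. That is 38.5% against the 23.1% of all genes. With ncbi_8269711 left out, 4 of 12 passed. The median log2 change of the 13, ncbi_8269711 included, was 0.92 against -0.08 for all genes tested. With library totals these were 0.48 and -0.52, and with the length trend removed 0.36 and 0, each with 3 genes higher and 1 lower. At 7 days and at day 11 none of the 12 tested genes besides ncbi_8269711 passed with edgeR or DESeq2, while 3 and 1 had an unadjusted p below 0.05 with edgeR. ncbi_107261952, a PLANT CADMIUM RESISTANCE 2-like gene, had 1965.44, 2201.6 and 2275.67 FPKM in PEG roots of day 3, against 531.16, 1371.24 and 993.8 FPKM in untreated roots. It was higher in each PEG library (log2 change 1.59 ± 0.38, edgeR adjusted p = 0.0091), and was not called with the trend over gene length removed (1.00, adjusted p = 0.0727) or with only the 2 groups in the fit (1.58, adjusted p = 0.0529).

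PLANT CADMIUM RESISTANCE 10 (ncbi_8275355) changed by 1.34 ± 0.39 (edgeR adjusted p = 0.0227) at 3 days. Its adjusted p was 0.0612 without untreated library 1, 0.0674 without untreated library 2 and 0.13 without PEG library 2. It was also not called by limma, with library totals (edgeR adjusted p = 0.0702) or with only the 2 groups in the fit (0.0833). Cell number regulator 6 (ncbi_8266078) changed by 1.13 ± 0.28 (edgeR adjusted p = 0.0102), with an adjusted p of 0.053 without untreated library 1. Cell number regulator 1-like (ncbi_8275312) was the lower gene, at -1.51 ± 0.42 (edgeR adjusted p = 0.0179), with 0.0563 without untreated library 3 and 0.0757 without PEG library 2. With only the 2 groups in the fit, ncbi_8266078 and ncbi_8275312 were not called (edgeR adjusted p = 0.0639 and 0.0656). In the reference gene table ncbi_8269711 lies next to a PLANT CADMIUM RESISTANCE 11-like gene, which had 12 counts over the 18 libraries and was not tested.

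Genes that could act with nicotianamine or with the same metals were collected in 10 lists of 152 genes, 117 of them tested. Leaving out the 3 members, 17 of 114 were higher and 20 lower in PEG roots at 3 days, or 32.5% against the 23.1% of all genes. The 20 include ncbi_8261714 and ncbi_8279286, which share reads with the member ncbi_8261713, so this share is not fully separate from the members. At 7 days 2 were higher and 5 lower, or 6.14% against 4.05%. Without each of the 6 libraries compared in turn, 2 of the 17 higher and 11 of the 20 lower genes stayed called at 3 days, and 0 of the 2 higher and 1 of the 5 lower at 7 days. At day 11 none of the 117 passed with edgeR, DESeq2 or limma, while 21 had an unadjusted p below 0.05, all of them lower in rehydrated roots. The 21 include both member synthases (edgeR unadjusted p = 0.0142 and 0.0146). Of all 16085 genes, 1564 had an unadjusted p below 0.05 there, and their split by direction was not counted. Scaling by library totals moved the median log2 change of all genes from -0.08 to -0.52 at 3 days. It also moved the split over the 117 genes, from 18 higher and 22 lower to 4 higher and 36 lower. At 7 days the split moved from 3 and 6 to 2 and 10. Directions of genes near the median are thus relative to the scaling.

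In the list of 12 tested YSL and oligopeptide transporters, which include carriers of nicotianamine-bound metals, 2 were higher and 3 lower at 3 days. That is 41.7% against the 23.1% of all genes. With library totals 0 were higher and 5 lower. The 2 genes called higher in the main fit were both annotated as YSL7. ncbi_8265295 had 1.61, 3.9 and 1.74 FPKM in PEG roots, against 1.01, 0.95 and 1.38 FPKM in untreated roots (log2 change 1.56 ± 0.45, edgeR adjusted p = 0.0224). Its edgeR adjusted p was 0.0807 and 0.0579 without untreated library 1 or 2 and 0.142 without PEG library 2. ncbi_8276916 had 54.76, 37.18 and 36.28 FPKM in PEG roots, against 11.33, 40.01 and 20.81 FPKM in untreated roots, so its ranges overlapped (log2 change 1.26 ± 0.42, edgeR adjusted p = 0.042). It passed without untreated library 2 alone among the 6 libraries, with edgeR adjusted p-values of 0.0574 to 0.153 without the others. Neither was called by limma or with only these groups in the fit, so the higher calls depend on the processing. YSL3 (ncbi_8276858), which carries metal-nicotianamine complexes, had 7.8, 10.21 and 9.75 FPKM in PEG roots of day 3, against 31.93, 74.27 and 41.97 FPKM in untreated roots (log2 change -1.98 ± 0.30, edgeR adjusted p = 0.00056). Its value was -1.55 without the second untreated library. YSL5 (ncbi_8280534) had 16.74, 13.11 and 19.02 FPKM in PEG roots, against 40.1, 43.73 and 54.74 FPKM in untreated roots (log2 change -1.07 ± 0.21, edgeR adjusted p = 0.00311). Both were lower in 3 of 3 PEG libraries and passed without each library in turn. At 7 days oligopeptide transporter 4 (ncbi_8279197), of a family that moves peptides and some metal complexes, had 10.65, 13.08 and 13.3 FPKM in PEG roots, against 52.44, 39.04 and 50.63 FPKM in untreated roots (log2 change -1.69 ± 0.27, edgeR adjusted p = 0.00801).

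Of the 4 tested genes in the list named iron uptake, 2 were lower at 3 days, or 50% against the 23.1% of all genes. Both were annotated as ferric reduction oxidase 7, chloroplastic-like, of a family that reduces ferric iron. Their calls are thus no measure of iron uptake by the root. ncbi_8286523 averaged 1.04 ± 0.359 FPKM in PEG roots and 9.12 ± 3.33 FPKM in untreated roots (SD, n = 3 each; log2 change -2.67 ± 0.40, edgeR adjusted p = 0.000575). ncbi_8262647 averaged 3.06 ± 0.790 FPKM in PEG roots and 12.2 ± 3.66 FPKM in untreated roots (log2 change -1.57 ± 0.30, edgeR adjusted p = 0.00254). The iron transporter 1-like gene (ncbi_8264630), of the family that takes up ferrous iron in Arabidopsis roots, did not pass (0.61 ± 0.95, edgeR adjusted p = 0.671). The same held for the FER-like iron deficiency-induced transcription factor (ncbi_8275242, -1.84 ± 0.86, edgeR adjusted p = 0.13). Of the 8 tested iron-deficiency regulators 3 were higher and none lower at 3 days, or 37.5% against the 23.1% of all genes. None was called higher with library totals, nor did the listed higher genes ncbi_8267410 (ILR3-like) and ncbi_8268712 (bHLH121-like) stay called without untreated library 1 (1.20, edgeR adjusted p = 0.12, and 1.02, 0.114).

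Among 10 tested genes of iron storage and vacuolar iron, 3 were lower and none higher at 3 days, or 30% against the 23.1% of all genes. A vacuolar iron transporter homolog 1-like gene (ncbi_8287992) had 0.52, 0 and 0.06 FPKM in PEG roots, against 8.86, 1.29 and 8.39 FPKM in untreated roots (log2 change -4.53 ± 1.06, edgeR adjusted p = 0.00809). It rested on 8 counts over the PEG libraries, was -6.79 without PEG library 1, and was not called with only the 2 groups in the fit (adjusted p = 0.0527). A metal transporter Nramp5-like gene (ncbi_8271003) was also lower (log2 change -2.1 ± 0.62, edgeR adjusted p = 0.0241). Its edgeR adjusted p was 0.0774 with only the 2 groups in the fit.

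Of 11 tested zinc transporters of the ZIP family 4 were lower and 1 higher at 3 days, or 45.5% against the 23.1% of all genes. Zinc transporter 10 (ncbi_8266080) had 19.65, 5.1 and 12.47 FPKM in PEG roots, against 80.7, 133.63 and 123.66 FPKM in untreated roots (log2 change -2.75 ± 0.48, edgeR adjusted p = 0.00151). The zinc transporter 1-like gene (ncbi_8271810) averaged 6.93 ± 5.73 FPKM in PEG roots and 54.6 ± 39.1 FPKM in untreated roots (SD, n = 3 each; log2 change -2.53 ± 0.60, edgeR adjusted p = 0.00808). It was -1.77 without untreated library 2, -3.47 without PEG library 2, and was not called with only the 2 groups in the fit (adjusted p = 0.0715). The higher gene, a probable zinc transporter (ncbi_8287759), had 1113.85, 990.51 and 1435.46 FPKM in PEG roots, against 363.51, 688.42 and 427.88 FPKM in untreated roots (log2 change 1.69 ± 0.31, edgeR adjusted p = 0.00206).

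Metal pumps, metal tolerance proteins and copper transporters split into 5 higher and 3 lower of 27 tested at 3 days, or 29.6% against the 23.1% of all genes. With library totals the split was 0 and 7. Among the higher genes were a ZINC INDUCED FACILITATOR-LIKE 1-like gene (ncbi_8264739, log2 change 1.53 ± 0.42, edgeR adjusted p = 0.0167) and a copper transporter 5.1-like gene (ncbi_8258602, 1.2 ± 0.39, edgeR adjusted p = 0.0357). With library totals their edgeR adjusted p-values were 0.0554 and 0.118. Metal tolerance protein 4 (ncbi_8287216), of a family that moves metals out of the cytosol, had 3.57, 3.13 and 5.7 FPKM in PEG roots of day 3, against 25.16, 24.35 and 30.95 FPKM in untreated roots (log2 change -2.26 ± 0.32, edgeR adjusted p = 0.000385). Metal tolerance protein 9 (ncbi_8286223) was also lower (-2.94 ± 0.95, edgeR adjusted p = 0.0366). At 7 days 2 of 27 were higher and 1 lower, or 11.1% against the 4.05% of all genes. The higher were solute carrier family 40 member 3 (ncbi_8269830, 1.69 ± 0.33, edgeR adjusted p = 0.0142) and HMA1 (ncbi_8285593, 0.84 ± 0.21, 0.0388). Metal tolerance protein 4 was the lower (-1.23 ± 0.3, 0.0351). Neither these 7-day calls nor that of metal tolerance protein 9 held with only the 2 groups in the fit. In the list of metallothioneins, phytochelatin synthase and isoprenylated metal-binding proteins, 2 of 12 were higher and none lower at 3 days, or 16.7% against the 23.1% of all genes. With library totals, and with the length trend removed, 0 were higher and 1 was lower. The metallothionein 3-like gene (ncbi_8282968) had 1.36, 6.08 and 40.2 FPKM in PEG roots, against 3.45, 0.98 and 5.04 FPKM in untreated roots, so its ranges overlapped. It passed at 2.74 ± 0.92 (edgeR adjusted p = 0.0423) through the third PEG library, without which it was 0.70 (adjusted p = 0.591). It was also lost without untreated library 1, 2 or 3 (adjusted p = 0.111, 0.111 and 0.0556). The other higher gene, heavy metal-associated isoprenylated plant protein 26-like (ncbi_8287225), was at 1.32 ± 0.43 (edgeR adjusted p = 0.0363). With library totals its edgeR adjusted p was 0.108.

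S-adenosylmethionine, from which nicotianamine is made, is supplied by 15 tested genes of synthesis and methionine salvage. At 3 days 1 was higher and 1 lower, or 13.3% against the 23.1% of all genes. With library totals these were 0 higher and 4 lower. In the main fit the higher was a methionine salvage dioxygenase gene (ncbi_8280227, 1.00 ± 0.26, edgeR adjusted p = 0.0123). The lower was a methionine synthase gene (ncbi_8286584, -1.21 ± 0.38, edgeR adjusted p = 0.0322). Neither was called with only the 2 groups in the fit (edgeR adjusted p = 0.0972 and 0.0747). At 7 days 2 were lower, or 13.3% against the 4.05% of all genes. They were an S-adenosylmethionine synthetase gene (ncbi_8261334, -3.23 ± 0.59, edgeR adjusted p = 0.0114) and a methionine synthase gene (ncbi_8282375, -2.15 ± 0.53, edgeR adjusted p = 0.0348). The adjusted p of ncbi_8261334 was 0.0622 without untreated library 2 and 0.0826 without PEG library 1. That of ncbi_8282375 was 0.0528 and 0.19 without untreated library 1 or 2 and 0.187 and 0.109 without PEG library 1 or 3. With only the 2 groups in the fit the edgeR adjusted p-values of these genes were 0.0551 and 0.0737.

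**Figure D4:**
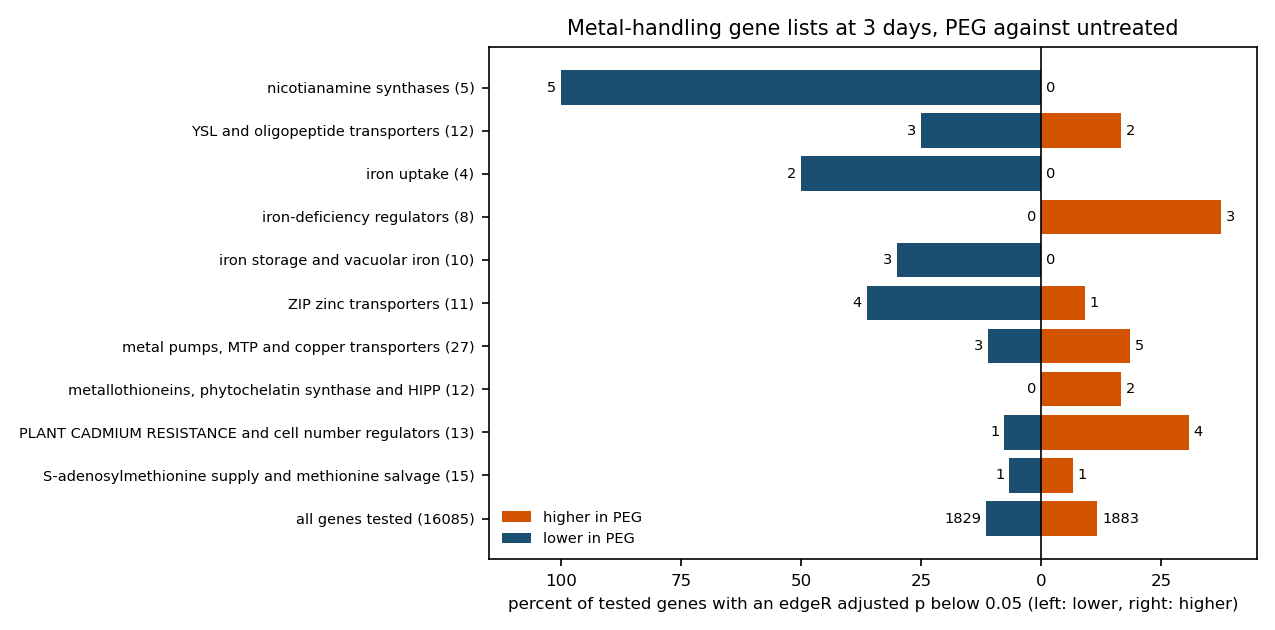
Percent of the tested genes of each list (their number in brackets) that passed an edgeR adjusted p of 0.05 in PEG against untreated roots at 3 days, lower to the left and higher to the right, with the number of genes at each bar and all 16085 genes at the bottom. The synthase bar includes the 2 members chosen at 3 days, and the PLANT CADMIUM RESISTANCE bar includes ncbi_8269711, chosen with results known. Of 11 ZIP transporters 4 were lower and 1 higher.

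Patterns across the 18 libraries were compared by Pearson's r of log2 CPM among 14443 candidate genes, as a description. The libraries share the PEG and untreated contrast, so any gene that differs strongly between these groups scores high. For ncbi_8258799 the highest were a polygalacturonase inhibitor-like gene (ncbi_8277505, r = 0.947), high-affinity nitrate transporter 2.1-like genes (ncbi_8275209 and ncbi_8275206, r = 0.94 and 0.919), an omega-hydroxypalmitate O-feruloyl transferase gene, whose product adds ferulate to suberin monomers (ncbi_8275769, r = 0.913), and scarecrow-like 3 (ncbi_8276945, r = 0.913). ncbi_8275206 had 47.17, 6.4 and 5.92 FPKM in PEG roots of day 3, against 433.08, 376.87 and 535.73 FPKM in untreated roots. For the genes named here r with ncbi_8258799 was 0.334 to 0.555 after removal of the group means.

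For ncbi_8261713 the highest were the copies it shares reads with, followed by metal tolerance protein 9 (ncbi_8286223, r = 0.867), zinc transporter 10 (ncbi_8266080, r = 0.838) and nuclear factor Y subunit A-10 (ncbi_8259768, r = 0.831). After removal of the group means, r was 0.725 with metal tolerance protein 9, 0.501 with zinc transporter 10 and 0.201 with nuclear factor Y subunit A-10. For ncbi_8269711 they were a cinnamyl alcohol dehydrogenase gene (ncbi_8285594, r = 0.941), a gene named only by its Brassica match (ncbi_8278286, r = 0.934), an aldo-keto reductase 4C9-like gene (ncbi_8283894, r = 0.92), a pleckstrin domain gene (ncbi_8270468, r = 0.919) and chitinase 3 (ncbi_8282608, r = 0.919). After removal of the group means r was 0.695 to 0.77 for these 5 genes. Ranked that way, 0, 2 and 0 of the 5 genes named for ncbi_8258799, ncbi_8261713 and ncbi_8269711 were again among the 5 highest.

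Markers of root endodermis and of green shoot tissue were measured in the same libraries. Of 4 Casparian strip membrane protein genes, which mark the root endodermis, 3 were tested and 0 passed at any time with edgeR or DESeq2, nor had any an unadjusted p below 0.05 with edgeR. Their median log2 changes were -1.56, -1.26 and -0.85 at 3 days, 7 days and day 11. Their summed FPKM was 1.24 to 27.62 in PEG roots and 8.4 to 89.12 in untreated roots at 3 days, 4.6 to 48.89 in PEG roots and 37.1 to 103.5 in untreated roots at 7 days, and 51.03 to 118.3 in rehydrated roots and 36.15 to 201.2 in untreated roots at day 11. None of the 4 was at 0 throughout a group, and the fourth, Casparian strip membrane protein 4, never exceeded 0.71 FPKM.

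Of 52 markers of green shoot tissue, 38 were tested, and 9 were higher at 3 days, 26 at 7 days and 0 at day 11, with none lower. At day 11 DESeq2 also called 0, and 5 had an unadjusted p below 0.05 with edgeR. Of all genes, 11.7% were higher at 3 days and 2.59% at 7 days. Their summed FPKM was 806.9 to 1879 in PEG roots and 417 to 987.3 in untreated roots at 3 days, 2445 to 3074 in PEG roots and 350.1 to 732.1 in untreated roots at 7 days, and 511.1 to 843.1 in rehydrated roots and 359.1 to 934.8 in untreated roots at day 11. Between 9 and 13 of the 52 were at 0 throughout a group. The part of these markers in the changes of the 3 genes was not tested. Changes also followed gene length: at 3 days the median log2 change was 0.58 in the shortest 10% of genes (median 684 bases) and -0.51 in the longest 10% (median 3839 bases). With that trend removed the changes at 3 days were -5.69 for ncbi_8258799, -5.67 for ncbi_8261713 and 3.11 for ncbi_8269711.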

How the data were processed

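Counts and FPKM were read from the deposited table, whose columns are named so per the file headers. The authors' counts hold some fractions and are expected counts, rounded here for tests; at least 98.3% of values per library were whole. FPKM of 5 groups is used as deposited by the authors. Title and description disagree for the FPKM columns of untreated day 11, so 3 columns of per-sample values were left out, and FPKM of that group was computed from counts, library totals and the gene length that counts and FPKM imply elsewhere. In the other groups FPKM computed this way was 0.9945 times the deposited value at percentile 5 and 1.004 times at percentile 95, over values of at least 1 FPKM. Trizol extraction and a kit that selects mRNA are stated per the labels' protocols. Aligner, counting tool and genome build: not given in the sources used here. The members and lists were chosen with earlier results of these data known.

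Genes were filtered with filterByExpr (minimum count 10, minimum total 15) and fitted with edgeR 4.0.16 (R 4.3.3; TMM, robust quasi-likelihood, 18 libraries, 1 mean per group), with Benjamini-Hochberg adjustment over 16085 genes. The SE is the log2 change divided by the root of F, an approximation. Alternatives used DESeq2 1.42.0, limma 3.58.1 on log2(FPKM + 1) or + 0.1, other scalings and left-out libraries. The code was tested on simulated data. Of 20538 NCBI gene numbers, 18929 were in the RefSeq gene table of assembly ASM1957865v1, used for neighbours only. Libraries differed beyond sampling noise in every pair within groups. Genes named were the members, the other synthases, called genes of the cadmium resistance family, up to 2 highest and 2 lowest called genes per list, and 5 genes of like pattern per member; iron transporter 1-like and the FER-like factor were added after their values were seen. Intervals and floors cover counting error only.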

Additional observations from a re-analysis of the deposited data

Results flagged for a closer look

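For 2 of the genes the edgeR quasi-likelihood fit put the difference between changes at different times past an adjusted p of 0.05, which is why they are listed here. The change of ncbi_8258799 under PEG was less negative at 7 days than at 3 days, by 3.61 ± 0.71 on the log2 scale. The change of ncbi_8269711 in rehydrated roots at day 11 minus its change under PEG at 7 days was -4.63 ± 1.02. Both differences draw on values by which the genes were chosen or may have been chosen, so they are descriptions and not tests. Leaving out 1 of the 12 libraries at a time, that threshold was missed in 10 cases for ncbi_8258799 and in 11 for ncbi_8269711.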

How the results depend on the processing

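Over the alternatives, the changes at 3 days, which are a description of chosen genes, ran from -6.62 to -4.38 for ncbi_8258799, from -5.77 to -3.73 for ncbi_8261713 and from 3.11 to 5.36 for ncbi_8269711. At 7 days ncbi_8258799 was no longer called by limma with a pseudocount of 0.1 (-2.02), with a replicate block (-1.73) or at an adjusted p of 0.01 (-1.78), nor was ncbi_8269711 at 0.01 (3.62). Leaving out 1 library gave -1.99 to -1.63 for ncbi_8258799 and 3.27 to 3.90 for ncbi_8269711, which missed the threshold without untreated library 1 or 2 or PEG library 1. Where ncbi_8269711 is said to be called or not, here and below, this describes a gene chosen with results known and is no test.

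For 7 days minus 3 days, ncbi_8258799 was not called with DESeq2 size factors (3.57), limma with 0.1 (4.16), only the libraries compared (3.61), the replicate block (3.71), an adjusted p of 0.01 (3.61) or without 1 library in most cases (2.96 to 4.84); ncbi_8269711 changed sign with the length trend removed (0.31) and ran from -1.75 to 0.30 without 1 library. For day 11 minus 7 days, ncbi_8261713 changed sign by limma with a pseudocount of 1, filtered or not (0.46), and ran from -1.90 to 1.02 without 1 library. ncbi_8269711 was not called there with library totals (-4.35), no filter (-4.62), limma with 1 (-3.0, filtered or not) or 0.1 (-4.21), the replicate block (-4.54), the length trend removed (-4.15) or an adjusted p of 0.01 (-4.63), and ran from -5.06 to -3.98 without 1 library. Between untreated groups DESeq2 called ncbi_8258799 at day 11 against day 3 (-1.27), a description since the untreated libraries of day 3 entered its choice. Without 1 library ncbi_8269711 ran from -1.94 to 0.10 for day 7 against day 3 and from -0.28 to 1.97 for day 11 against day 3, and ncbi_8261713 from -2.74 to 0.60 for day 11 against day 3. Without 1 library ncbi_8269821 at 7 days ran from -0.21 to 1.33. The cause of these shifts was not tested.

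Of the 117 pathway genes, 18 higher and 22 lower at 3 days became 4 and 36 with library totals, 5 and 35 by limma with 1 (4 higher unfiltered), 4 and 35 with 0.1, 2 and 10 with only the groups compared, and 3 and 13 at 0.01. At 7 days, 3 and 6 became 6 higher by DESeq2, 10 lower with library totals, 11 lower by limma with 1, 1 and 2 with only the groups compared, and 0 and 1 at 0.01. Without 1 library there were 3 to 15 higher and 15 to 23 lower at 3 days (3 higher without untreated library 1, 9 without PEG library 3, 11 without untreated library 3), and 0 to 4 and 1 to 5 at 7 days. Over all genes, 1883 higher and 1829 lower at 3 days ran over 682 to 2402 and 603 to 4157, and 417 and 235 at 7 days over 52 to 1034 and 18 to 654. Of the 5 genes of like pattern, 0, 2 and 0 were shared after removal of group means, and 1, 3 and 1 by Spearman's rho, for ncbi_8258799, ncbi_8261713 and ncbi_8269711.

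By the labels, same-numbered libraries of compared groups shared only a number. Their deviations from the group means correlated at 0.625, 0.501 and 0.08 at 3 days. At 7 days these values were 0.047, 0.503 and -0.227, and at day 11 they were 0.164, -0.154 and -0.156. Libraries of different number ran from -0.55 to 0.12 at 3 days, from -0.52 to 0.479 at 7 days and from -0.234 to 0.307 at day 11. Whether same-numbered libraries shared a batch is not known from the labels. With 3 libraries a group and few counts in PEG roots of day 3, small changes of these genes were not detectable.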
